A study of Mus musculus with 15 samples.

Results

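Abca1 and 7 genes linked to liver X receptor (LXR) signaling were examined in the kidneys of hypertensive mice. The set held the cholesterol transporters Abca1 and Abcg1, the LXR genes Nr1h3 and Nr1h2, the lipogenic factor Srebf1, the lipoprotein gene Apoe, the ubiquitin ligase gene Mylip and the HDL receptor gene Scarb1. All 8 members were found among the 13940 genes of the 15 kidneys and among the 12372 genes tested. Abca1 was chosen because its level was lower with angiotensin II (Ang II) and higher again with Qingda granule (QDG) in these same mice, so its group values are given as a description with no test. The other 7 members were chosen by function, with earlier results of these data known. The mice were male wild-type (WT) C57BL/6 animals, bought at 8 weeks of age and differed by label in treatment only. The 5 Control mice received saline for 28 days from implanted subcutaneous osmotic pumps. The 5 Ang II mice received Ang II at 500 ng/kg/min over the same 28 days, a peptide infusion that raises blood pressure. The 5 Ang II + QDG mice received this infusion together with QDG, a Chinese herbal preparation, at 1.145 g/kg/day by gavage, while the mice of the other groups were gavaged with double-distilled water. The comparison of Ang II with Control is called the Ang II comparison, and that of Ang II + QDG with Ang II the QDG comparison. Renal tissue of each mouse was sequenced after rRNA depletion, 1 library per mouse, and the model therefore measures the whole kidney and not a cell type. In such bulk samples, fewer cells of a type and less RNA per cell cannot be told apart.

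LXRs are nuclear receptors that bind oxysterols, oxidized forms of cholesterol, and act on DNA as dimers with the retinoid X receptor (RXR). When a cell holds too much cholesterol they are known to raise Abca1 and Abcg1, which move cholesterol out to apolipoproteins and HDL, and Mylip, which limits the uptake of lipoprotein cholesterol. They also raise Srebf1 and its fatty acid synthesis targets, whereas the related factor SREBP2, encoded by Srebf2, drives cholesterol synthesis and uptake when cholesterol is low. In the kidney, ABCA1 is known for removing cholesterol from podocytes, tubule cells and macrophages.

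Values are in FPKM (fragments scaled to transcript length and library size), summed over the annotated transcripts of a gene that all 15 files list. A log2 fold change is a difference of mean log2(FPKM + 1) with its standard error (SE), and genes were called at a Benjamini-Hochberg adjusted p under 0.05 from limma over 12372 genes. The FPKM steps implied 7.503e+07 to 8.133e+07 fragments per mouse in Control, 7.07e+07 to 7.929e+07 in Ang II and 6.892e+07 to 7.614e+07 in Ang II + QDG. The file of the first Control mouse lists 41477 transcripts and that of the last Ang II + QDG mouse 42310. Where a difference in how the files were made follows the groups, it and the treatment cannot be told apart. In the Ang II comparison, 735 genes were called (5.94% of those tested), 612 higher and 123 lower, and the median log2 fold change of all genes was 0.08. Median scaling gave 209 higher and 286 lower, and quantile normalization 227 and 268. In the QDG comparison, 224 genes were called (1.81%), 65 higher and 159 lower, against 68 and 99 with median scaling and 97 and 97 with quantile normalization. With QDG against Control, 16 genes were called (0.129%), 12 higher and 4 lower, against 10 and 12 with median scaling and 8 and 7 with quantile normalization. The first 2 comparisons share the 5 Ang II mice, so a high or low value in those mice enters both with opposite sign.

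Abca1 (ENSMUSG00000015243, chr4:53030787-53159895 on GRCm38, minus strand) encodes the membrane pump that loads cholesterol and phospholipid onto lipid-poor apolipoprotein A-I, the first step in HDL formation. Its sequences are shown because the known LXR control acts through a DNA element close to its start site. The element is a direct repeat of 2 half-sites of 6 bases with a spacer of 4 bases, called DR4. In the RefSeq promoter windows (GRCm38, 250 bases before to 50 after each start site), the exact letters GGGTTANNNNCGGTCA on either strand were found in 3 of 32851 windows (0.00913%). This string was taken from the Abca1 window after that window had been read, so the match of Abca1 itself is no finding. The other 2 windows belong to Srebf1 and to Fasn, which encodes fatty acid synthase. The 3 elements are given with the half-sites in capitals.
Abca1: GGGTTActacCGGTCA
Fasn: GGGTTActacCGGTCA
Srebf1: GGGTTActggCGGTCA
Abca1 and Fasn also had the same 4 spacer letters, and Srebf1 differed in the spacer. The Abca1 element lies at chr4:53159947-53159962, at positions −67 to −52 from the start site, on the strand opposite to the gene. The Srebf1 element lies at chr11:60210638-60210653, at positions −182 to −167 from 1 of the 3 RefSeq start sites of Srebf1. The Fasn element lies at chr11:120824757-120824772, at positions −225 to −210. Windows of 100 bases around the Abca1 and Srebf1 elements are printed 5′ to 3′ on the strand of the gene (minus), at chr4:53159905-53160004 and chr11:60210596-60210695, with the element in capitals in its reverse complement.
Abca1: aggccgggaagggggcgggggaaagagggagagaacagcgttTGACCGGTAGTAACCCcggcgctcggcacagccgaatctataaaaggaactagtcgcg
Srebf1: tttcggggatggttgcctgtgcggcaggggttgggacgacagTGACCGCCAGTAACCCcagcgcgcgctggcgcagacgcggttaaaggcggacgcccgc
A search for the half-site AGGTCA, any 4 bases and AGGTCA again, with up to 3 of the 12 fixed letters different, found a match on either strand in 21.9% of all windows. Abca1 and this Srebf1 window each met it with 3 differences, and none of the other 9 windows of members (Nr1h3, Nr1h2, Apoe, Mylip and the other 2 of Srebf1) did. Abcg1 and Scarb1 had no window in the table. A match of letters is a description and says nothing of binding in these kidneys.

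Abca1 was lower in all Ang II mice than in any Control mouse, and higher in all Ang II + QDG mice than in any Ang II mouse. The sum consists of 1 transcript, Abca1-201, a protein-coding transcript of 10262 bases that had 1028 to 5828 fragments per mouse. The Control mice had 3.91, 4.67, 5.68, 4.03 and 7.38 FPKM. The Ang II mice had 2.30, 1.61, 1.27, 1.72 and 1.38 FPKM, and the Ang II + QDG mice 5.49, 4.41, 2.61, 3.32 and 3.58 FPKM. The highest Ang II value (2.30) was thus below the lowest Control value (3.91) and the lowest Ang II + QDG value (2.61), while Control and Ang II + QDG overlapped. The group means were 5.14 ± 1.44 FPKM (Control), 1.66 ± 0.404 (Ang II) and 3.88 ± 1.10 (Ang II + QDG; SD, n = 5). The Ang II mean was 32.2% of Control and the Ang II + QDG mean 75.6% of Control. The log2 fold change was −1.19 (SE 0.18) in the Ang II comparison, 0.86 (SE 0.18) in the QDG comparison and −0.33 (SE 0.18) for QDG against Control. The pseudocount of 1 shrinks these values, and a pseudocount of 0.1 gave −1.57 and 1.17 in the first 2 of these. Over all genes tested, 1.42% likewise had all Ang II mice below Control and 1.56% all Ang II + QDG mice above Ang II, and since Abca1 was chosen for this pattern nothing is read from that. The coefficient of variation was 28.0% in Control, 24.4% with Ang II and 28.5% with added QDG.

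**Figure D1:**
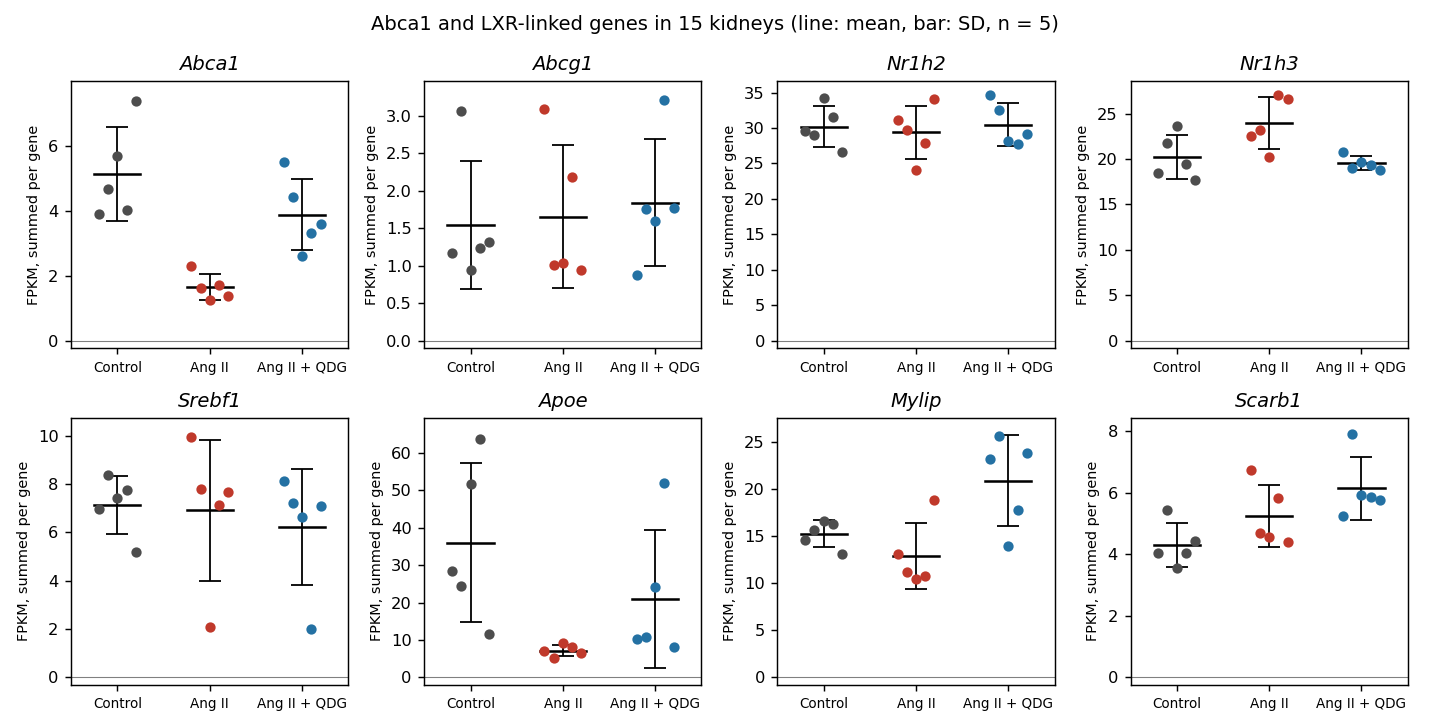
FPKM summed per gene (y axis) for the 8 members in each mouse (points) of the 3 treatment groups (x axis), with the mean as a line and the SD as a bar, n = 5 per group. The 5 Ang II mice lie below all Control mice for Abca1 (1.27 to 2.30 against 3.91 to 7.38 FPKM) and Apoe (5.08 to 9.11 against 11.6 to 63.7 FPKM), and the groups overlap for the other 6 members. Of all genes tested, 1.42% lay lower with Ang II than in Control without overlap.

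The second sequence known to bear on Abca1 is the target of miR-33, a microRNA encoded inside Srebf2 that is known to repress Abca1. The mature RNA is printed with its seed (bases 2 to 8) in capitals, as RefSeq gives it at chr15:82198127-82198147 on GRCm38, plus strand. Below it stands the stretch of the 3′ untranslated region of Abca1-201 that holds the matches to the seed (CAATGCA, in capitals), bases 7241 to 7262 of the transcript, chr4:53033787-53033808, minus strand.
mmu-miR-33-5p: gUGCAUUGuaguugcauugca
Abca1-201: CAATGCAATGCActtCAATGCA
The 22 bases hold 3 matches, the first 2 of which overlap by 2 bases. Of 17135 protein-coding transcripts in all 15 files with an annotated 3′ untranslated region, 5.94% held at least 1 such match there and 0.467% at least 2. The region is 3156 bases long in Abca1-201, and longer regions hold more matches. The host gene Srebf2 rose in the Ang II comparison, from 20.2 ± 1.78 to 27.2 ± 2.73 FPKM (SD, n = 5; log2 fold change 0.41, SE 0.08, adjusted p = 0.0121), without overlap of the groups (6.49% of all genes lay higher without overlap). With QDG, Srebf2 had 22.6 ± 1.43 FPKM (SD, n = 5), a log2 fold change of −0.25 from Ang II (adjusted p = 0.119). Mature miR-33 was not analysed here, and its part in the level of Abca1 was not tested.

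Abcg1 (ENSMUSG00000024030, chr17:31057675-31117988), which passes cholesterol from cells to HDL that already carries lipid, had about the same level in the 3 groups. The Control mice had 1.18, 3.06, 0.938, 1.24 and 1.31 FPKM, the Ang II mice 3.10, 1.01, 1.03, 2.18 and 0.947, and the Ang II + QDG mice 0.875, 1.76, 1.6, 3.21 and 1.77. Each group held a mouse above 3 FPKM and a mouse below 1 FPKM, so that the groups covered the same range. The log2 fold change was 0.05 (95% interval −0.52 to 0.61, adjusted p = 0.945) in the Ang II comparison and 0.12 (−0.45 to 0.69, adjusted p = 0.873) in the QDG comparison.

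The receptors themselves were expressed at a higher level per length than the transporters and varied little. Nr1h2 (LXRβ, ENSMUSG00000060601, chr7:44549616-44553951) is the form found in most cells. It had 30.2 ± 2.83 FPKM (Control), 29.4 ± 3.72 (Ang II) and 30.5 ± 3.02 (Ang II + QDG; SD, n = 5), with log2 fold changes of −0.04 (95% interval −0.25 to 0.16, adjusted p = 0.832) and 0.06 (−0.15 to 0.26, adjusted p = 0.828). Nr1h3 (LXRα, ENSMUSG00000002108, chr2:91184061-91202834), the form of liver, fat, kidney and macrophages, had 18.4, 21.7, 23.6, 19.4 and 17.7 FPKM in Control and 22.6, 23.2, 20.3, 27.0 and 26.6 FPKM in Ang II. The Ang II + QDG mice had 20.8, 19.0, 19.7, 19.3 and 18.8 FPKM, a narrower range than either of the other groups. Its mean was highest in Ang II, the group in which that of Abca1 was lowest. The log2 fold changes of 0.24 (SE 0.09, adjusted p = 0.13) and −0.27 (SE 0.09, adjusted p = 0.13) missed the adjusted threshold in limma, with overlapping groups in both comparisons. The unadjusted p was 0.0188 and 0.00797, beside which 22.7% and 16.4% of all genes had an unadjusted p under 0.05. The sum of Nr1h2 covers 10 of its 18 GENCODE transcripts and that of Nr1h3 covers 5 of 8, and the strand of the libraries is not given in the sources used here. Gm13783 overlaps Nr1h3 on the same strand over 6873 bases, so that fragments of the 2 genes could be assigned to either.

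Srebf1 (ENSMUSG00000020538, chr11:60199089-60222581), an LXR target whose protein drives fatty acid synthesis, had overlapping values in the 3 groups. The Control mice had 6.97, 8.38, 7.42, 7.78 and 5.18 FPKM, the Ang II mice 9.94, 7.81, 2.07, 7.16 and 7.66, and the Ang II + QDG mice 8.15, 7.24, 6.63, 2.02 and 7.11. Ang II mouse 3 and Ang II + QDG mouse 4 stood apart at about 2 FPKM, and the other 13 mice had 5.18 to 9.94. The log2 fold changes were −0.14 (95% interval −0.87 to 0.59, adjusted p = 0.85) and −0.11 (−0.85 to 0.62, adjusted p = 0.912). The sum holds 2 of 12 GENCODE transcripts, Srebf1-201 and Srebf1-203, and neither starts at the start site whose window holds the element shown above. Srebf1-203 was listed at 0 in Control mouse 5 and at 5.14 to 6.19 FPKM in the other Control mice. Without Ang II + QDG mouse 4, the second of these values was 0.18 (adjusted p = 0.84). Fasn, named here because of the shared element, had 11.5 ± 4.99 FPKM (Control), 15.8 ± 13 (Ang II) and 9.10 ± 2.04 (Ang II + QDG; SD, n = 5), and was not called by limma (0.26, adjusted p = 0.706, and −0.51, adjusted p = 0.504).

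Apoe (ENSMUSG00000002985, chr7:19696109-19699188) encodes the apolipoprotein that carries cholesterol between cells and that macrophages and tubule cells secrete. It fell in the Ang II comparison and was the only 1 of the 7 members other than Abca1 to be called there, beside 0.994% of all genes called lower and 5.94% called in either direction. The Control mice had 28.4, 24.4, 51.8, 63.7 and 11.6 FPKM, and the Ang II mice 7.01, 5.08, 9.11, 8.0 and 6.47 FPKM. The Control mice were widely spread, and the lowest of them still lay above all Ang II mice. Over all genes tested, 1.42% lay lower in Ang II without overlap. The means were 36.0 ± 21.2 and 7.14 ± 1.53 FPKM (SD, n = 5 each), with a log2 fold change of −1.99 (SE 0.49, adjusted p = 0.0305). The exact two-sided permutation test over the 10 mice gave an unadjusted p = 0.00794, the smallest that 5 mice against 5 allow. The Ang II + QDG mice had 10.2, 10.7, 24.2, 52.0 and 8.16 FPKM. Of these, 2 lay within the Control range, 1 lay within the Ang II range and the other 2 lay between the ranges, with a mean of 21.1 ± 18.5 FPKM (SD, n = 5). The log2 fold change from Ang II was 1.12 (SE 0.49, adjusted p = 0.266), and from Control −0.87 (adjusted p = 0.435). Without Ang II + QDG mouse 4 it was 0.72 from Ang II (adjusted p = 0.467). The study used a threshold of a fold change of at least 2 with p under 0.05 on single transcripts. Here it was applied to gene sums of FPKM on the log2(FPKM + 1) scale, with the unadjusted p of limma. By it, Apoe was lower in Ang II (0.388% of all genes) and higher in the QDG comparison (limma unadjusted p = 0.0376, beside 0.356% of all genes).

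The call on Apoe depended on the mice and on the transcripts that make up the sum. The sum holds 4 of 11 GENCODE transcripts, all protein-coding, of which Apoe-205 gave 40.8%, Apoe-206 35.4%, Apoe-204 19.5% and Apoe-210 4.33% of the FPKM. Apoe-206 had 0.609 to 41.9 FPKM in Control and 0.0358 to 0.442 FPKM in Ang II, whereas Apoe-205 had 6.17 to 12.3 and 2.15 to 5.34 FPKM. For both transcripts all Ang II mice lay below Control, while the groups overlapped for Apoe-204 and Apoe-210. The share of all transcripts without overlap was not computed. In a limma fit over 28812 transcripts no Apoe transcript was called in the Ang II comparison, with a log2 fold change of −3.10 (adjusted p = 0.121) for Apoe-206 and −1.10 (adjusted p = 0.239) for Apoe-205. With Apoe-205 alone standing for the gene, the adjusted p over genes was 0.192. The adjusted p was between 0.0537 and 0.0755 when Control mouse 1, 3 or 4 or Ang II mouse 1, 2 or 5 was left out, with log2 fold changes of −1.73 to −2.01.

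**Figure D2:**
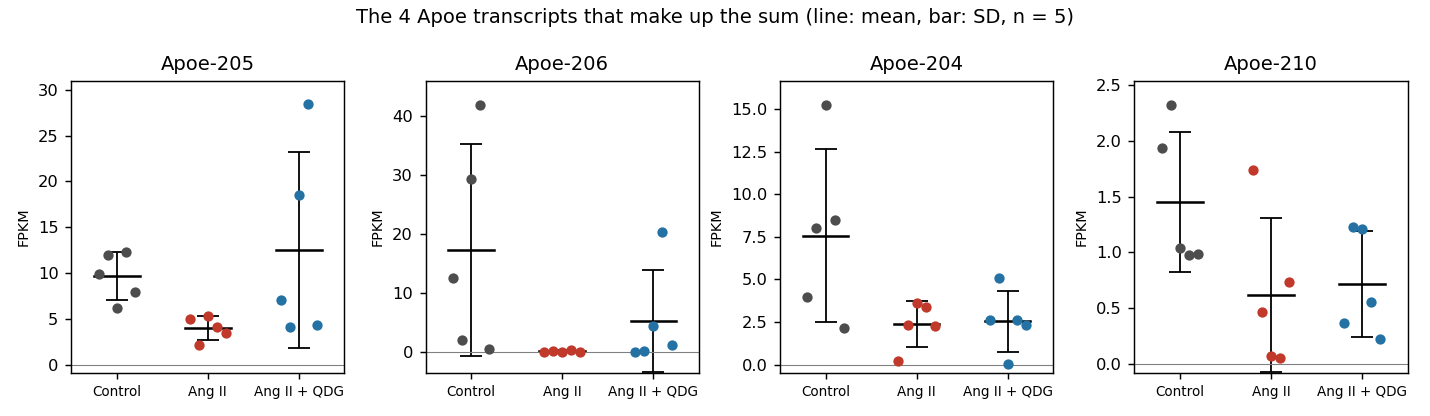
FPKM (y axis) of the 4 Apoe transcripts in the sum, in each mouse (points) of the 3 groups (x axis), with the mean as a line and the SD as a bar, n = 5 per group. Apoe-206 reaches 41.9 FPKM in Control and at most 0.442 in Ang II, while Apoe-205 reaches 12.3 FPKM in Control and 28.4 in Ang II + QDG.

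Mylip (ENSMUSG00000038175, chr13:45389742-45412022), a ubiquitin ligase gene whose protein limits lipoprotein uptake, was highest on average in Ang II + QDG. The Control mice had 14.6, 15.7, 16.6, 16.2 and 13 FPKM, the Ang II mice 13.1, 11.2, 10.4, 10.7 and 18.8, and the Ang II + QDG mice 23.1, 25.6, 13.95, 17.8 and 23.8. Of the Ang II mice 4 lay below all Ang II + QDG mice, and mouse 5 lay among them. The log2 fold change in the QDG comparison was 0.66 (95% interval 0.29 to 1.03, adjusted p = 0.069), so that none of the 7 members was called in limma in this comparison (1.81% of all genes called; 0.525% called higher), while at an unadjusted p under 0.05 there were 3 (16.4% of all genes): Mylip, Apoe and Nr1h3. Without Ang II mouse 5 the adjusted p of Mylip was 0.0399, and without Ang II + QDG mouse 3 it was 0.0422. In the Ang II comparison Mylip had a log2 fold change of −0.26 (−0.62 to 0.11, adjusted p = 0.413).

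Scarb1 (ENSMUSG00000037936, chr5:125277087-125341094) encodes SR-BI, the receptor that takes up cholesterol from HDL. The Control mice had 4.02, 5.43, 3.54, 4.04 and 4.44 FPKM, the Ang II mice 6.72, 4.69, 4.56, 5.82 and 4.41, and the Ang II + QDG mice 5.25, 7.89, 5.91, 5.84 and 5.76. The means of the sum stood in the order Control (4.29), Ang II (5.24) and Ang II + QDG (6.13), with neighbours overlapping. The log2 fold change was 0.23 (adjusted p = 0.305) in the Ang II comparison and 0.20 (adjusted p = 0.482) in the QDG comparison. Between QDG and Control it was 0.43 (95% interval 0.16 to 0.70, adjusted p = 0.154), and none of the 7 members was called there by limma (0.129% of all genes called), while Scarb1 and Mylip had an unadjusted p under 0.05 (14.4% of all genes). The sum holds 3 of 11 transcripts, 1 of them with a retained intron (Scarb1-209), which had 0.0960 to 1.58 FPKM in Control, 0.687 to 2.51 in Ang II and 0.322 to 2.25 in Ang II + QDG. The order of the group means depended on this transcript. With protein-coding transcripts only, the log2 fold change of Scarb1 was −0.10 in the Ang II comparison and 0.49 in the QDG comparison, neither of them called. The mean of the most abundant transcript, Scarb1-201, was 3.02 FPKM in Control, 2.90 with Ang II and 4.58 with added QDG.

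**Figure D3:**
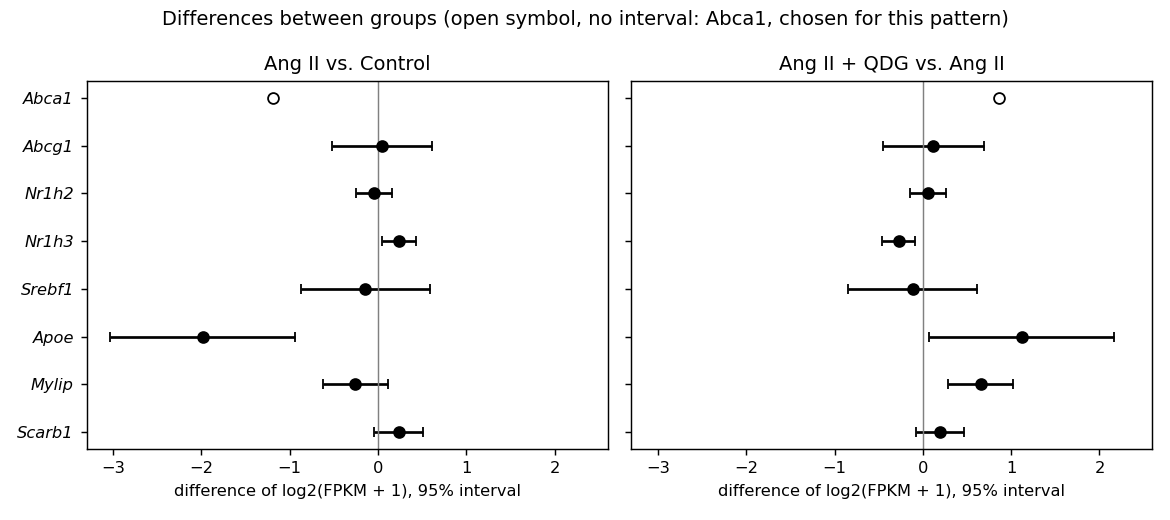
Difference of mean log2(FPKM + 1) (x axis) for the 8 members (y axis) in the Ang II comparison and the QDG comparison, with the 95% interval from limma. Abca1 is an open symbol with no interval (−1.19 and 0.86), and of the others Apoe has the largest differences (−1.99 and 1.12) and the widest intervals.

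Abca1 also varied among the mice of a group, and these deviations were not used to choose it. Across the 15 mice with the group means removed, its correlation with the other 7 members was computed. That with Apoe was negative (Pearson's r = −0.54, permutation p = 0.0936, adjusted p = 0.553 over 7 relations; Spearman's rho = −0.54, permutation p = 0.0825, adjusted p = 0.329). Without the 2 mice farthest from the median of Abca1, r with Apoe was −0.28, and r with the other 6 members lay between 0.26 and 0.51 (Scarb1). Over all 15 mice, the other 6 members had r between 0.00 and 0.30, with an adjusted permutation p of at least 0.553, and rho between 0.03 and 0.41, with an adjusted permutation p of at least 0.329. None of the 7 relations passed over all 15 mice, and their size depended on those 2 mice.

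The genes whose levels were most like those of Abca1 over all 15 mice, by Pearson's r of log2(FPKM + 1) among the genes tested, were not of the LXR set. Fech, which encodes the last enzyme of heme synthesis, came first (r = 0.93, rho = 0.88), followed by Fam69a (r = 0.89), Bdh2, a dehydrogenase (r = 0.88), and Tfb2m, a mitochondrial transcription factor (r = 0.87). Each of these had its lowest mean in Ang II, and Fech had 67.7 FPKM in Control, 53.7 with Ang II and 65.4 with added QDG. Among the members, Apoe ranked 761 of all genes by r and Mylip 821. These are descriptions over 15 mice that share the groups for which Abca1 was picked.

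Other genes of cholesterol handling were counted in lists chosen by function, with earlier results of these data known. Of the 24 genes tested of the SREBP pathway and cholesterol synthesis, 6 rose and none fell in the Ang II comparison (4.95% of all genes called higher), and the median log2 fold change of the list was 0.37, against 0.08 over all genes. With median scaling 4 of them were called higher and with quantile normalization 5, with list medians of 0.27 and 0.28. Fdps, which makes farnesyl diphosphate, had 13.4 ± 2.0 FPKM in Control and 24.2 ± 3.65 in Ang II (SD, n = 5 each; log2 fold change 0.80, SE 0.12, adjusted p = 0.00593). Pmvk, phosphomevalonate kinase, had log2 fold change 0.71 (adjusted p = 0.00841), Lss, lanosterol synthase, 0.54 (adjusted p = 0.024), and Nsdhl, a sterol dehydrogenase, 0.45 (adjusted p = 0.0166). For Fdps, Pmvk, Lss, Nsdhl and Srebf2 all Ang II mice lay above Control. Of the 24 genes, called or not, 7 did so (6.49% of all genes lay higher without overlap). The call on Lss was lost without Control mouse 1 or 3 or Ang II mouse 2 or 5 (adjusted p = 0.0526 to 0.0592) and under 3 alternatives with all mice kept (adjusted p = 0.0508 to 0.0598). Nsdhl was not called with median scaling (adjusted p = 0.0724) or quantile normalization (adjusted p = 0.0518). The sixth was Msmo1, a sterol oxidase (0.71, adjusted p = 0.0274), named after its values were seen. With only the most abundant transcript of the gene, Fdps had 0.89 (adjusted p = 0.325).

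In the QDG comparison, 3 of these 24 genes fell and none rose (1.29% of all genes called lower), with a list median of −0.19 against −0.02 over all genes. Idi1, isopentenyl diphosphate isomerase, had 38.0 ± 4.94 FPKM in Ang II and 18.6 ± 2.73 with added QDG (SD, n = 5), with a log2 fold change of −0.99 (SE 0.16, adjusted p = 0.0141). Fdps changed by −0.61 (adjusted p = 0.0255) and Nsdhl by −0.44 (adjusted p = 0.0341). These 2 calls were lost when any 1 of 6 mice was left out for Fdps (adjusted p = 0.0518 to 0.0604) and any 1 of 8 for Nsdhl (adjusted p = 0.0503 to 0.0808). With all mice kept, they were lost under 2 alternatives for Fdps (adjusted p = 0.0604 and 0.72) and 3 for Nsdhl (adjusted p = 0.0577 to 0.0851). In Idi1, Fdps and Nsdhl all Ang II + QDG mice lay below Ang II (3.44% of all genes lay lower without overlap). With median scaling or quantile normalization 2 of the 24 were called lower, and without Ang II + QDG mouse 4 there was 1. Between QDG and Control none of the 24 was called by limma (0.129% of all genes), with 4 at an unadjusted p under 0.05 (14.4% of all genes). The shared Ang II mice enter both comparisons.

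The other lists held few calls. Of 15 other LXR target genes tested, 2 were called in the Ang II comparison (5.94% of all genes called). Smpdl3a, a phosphodiesterase, fell (256 ± 23.5 to 193 ± 9.25 FPKM; log2 fold change −0.41, adjusted p = 0.00742). Arl4c, a small GTPase, rose (2.16 ± 0.364 to 3.43 ± 0.344 FPKM; 0.49, adjusted p = 0.0175). None of the 15 was called in the QDG comparison by limma, with 1 at an unadjusted p under 0.05 (16.4% of all genes). The median log2 fold change of these 15 genes was 0.09 in the Ang II comparison and −0.09 in the QDG comparison. Lpl, lipoprotein lipase, had 145 FPKM in Control, 157 with Ang II and 92.9 with added QDG (log2 fold change −0.75 in the QDG comparison, adjusted p = 0.12), and Lpcat3 and Pltp, which remodel phospholipid, were not called.

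Of 20 genes of intracellular cholesterol movement, Lipa, the lysosomal acid lipase that frees cholesterol from its esters, rose in the QDG comparison and was the only 1 called there (0.525% of all genes called higher). It had 96.6 ± 11.8 FPKM (Control), 76.8 ± 12.7 (Ang II) and 113 ± 8.81 (Ang II + QDG; SD, n = 5). The log2 fold change was −0.34 (adjusted p = 0.1) in the Ang II comparison and 0.56 (adjusted p = 0.0292) in the QDG comparison. Without Ang II + QDG mouse 2, 4 or 5 or Ang II mouse 5, this call was lost (adjusted p = 0.0523 to 0.0736). With median scaling and with quantile normalization, 2 of the 20 were called higher in the QDG comparison and 2 lower in the Ang II comparison, where none was called on the unscaled values of all 15 mice. Npc1, the lysosomal cholesterol exporter, was even across groups (5.29, 5.52 and 5.75 FPKM). Among 9 tested transporters of the A and G subfamilies, Abcg2, a urate and drug pump, fell in the Ang II comparison (246 ± 20.8 to 207 ± 7.49 FPKM; log2 fold change −0.25, adjusted p = 0.0359), a call lost when any 1 of 9 mice was left out (adjusted p = 0.0544 to 0.0895). Abca4 rose in the QDG comparison (0.784 ± 0.136 to 1.41 ± 0.275 FPKM; log2 fold change 0.43, adjusted p = 0.0419), a call lost when any 1 of 11 mice was left out (adjusted p = 0.0505 to 0.103). Abca7, a close relative of Abca1, was listed at 0 in 1 Control mouse and at up to 2.47 FPKM in the others, with 1.3 to 3.71 FPKM in Ang II and 1.34 to 2.56 with added QDG, and was not called (log2 fold change 0.80 in the Ang II comparison, adjusted p = 0.135). No gene of the lists of LXR partners (12 tested), HDL formation (9) and oxysterol metabolism (8) was called in any comparison. At an unadjusted p under 0.05 there were 2, 1 and 3 of them in the Ang II comparison, 1 of each list in the QDG comparison, and 0, 0 and 1 between QDG and Control, where 22.7%, 16.4% and 14.4% of all genes did so. The RXR partners Rxra (34.9, 39.4 and 35 FPKM) and Rxrb (15.1, 17.1 and 15.9 FPKM) had log2 fold changes of 0.17 each in the Ang II comparison (adjusted p = 0.149 and 0.161). Pdzk1, which anchors SR-BI, had the highest mean FPKM of the HDL list. Apoa1 did not pass the filter on low values, and Lcat was not analysed here.

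**Figure D4:**
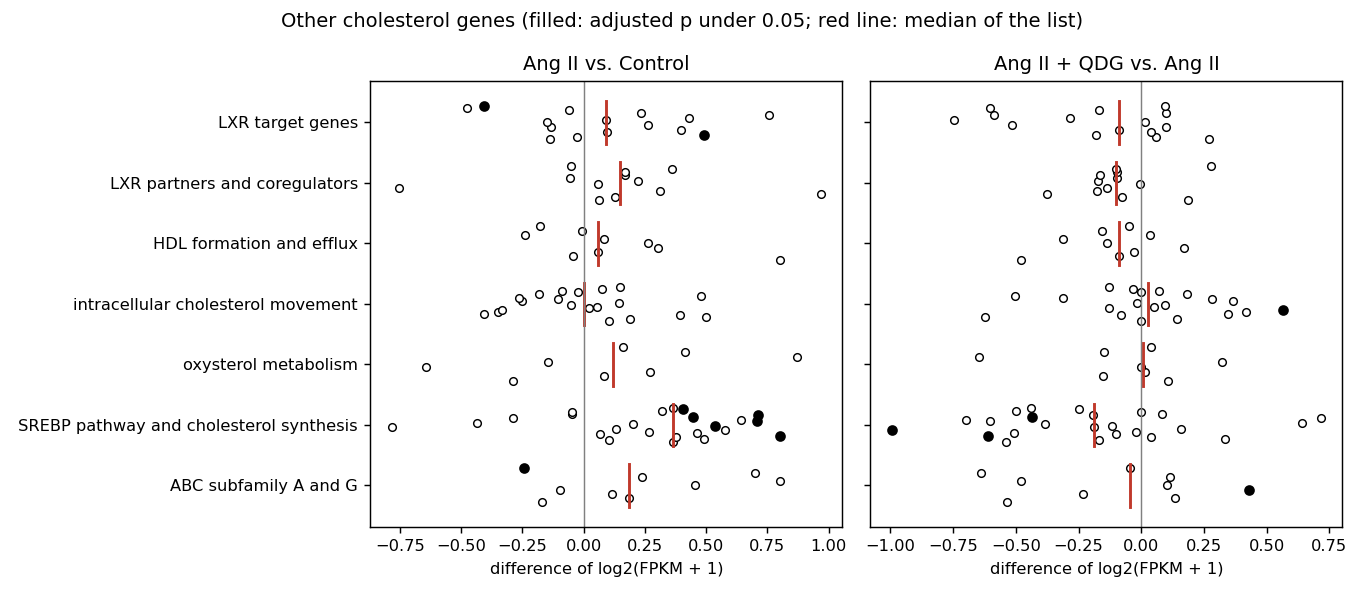
Difference of mean log2(FPKM + 1) (x axis) for each gene tested in 7 lists of cholesterol genes (y axis), in the Ang II comparison and the QDG comparison, with filled points for an adjusted p under 0.05 and a red line for the list median. The synthesis list lies to the right in the first comparison (median 0.37, 6 called) and to the left in the second (median −0.19, 3 called).

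Several of the members are expressed by macrophages, so markers of these cells were compared between the groups. Of 12 macrophage markers, 11 were in the files and 9 were tested. Of the 9, 8 had a lower mean log2 value with Ang II than in Control, and 9 had a higher one with added QDG than without. None was called by limma in the Ang II or QDG comparison (5.94% and 1.81% of all genes called). At an unadjusted p under 0.05 there were 0 and 1 (22.7% and 16.4% of all genes). The summed level of the macrophage markers was 44.0 to 66.7 FPKM in Control (mean 60.3), 35.8 to 59.2 in Ang II (mean 44.7) and 43.5 to 149.5 in Ang II + QDG (mean 72.1). The exact two-sided permutation test gave an unadjusted p = 0.0238 for the sum in the Ang II comparison and p = 0.159 in the QDG comparison. Ang II + QDG mouse 4 held the highest sum (149.5 FPKM), and the others of its group had 43.5 to 70.2 FPKM. Mouse 4 also had the highest Apoe of its group (52.0 FPKM) and the lowest Srebf1 of all mice (2.02 FPKM). Its Abca1 (3.32 FPKM) was near the middle of its group. Without that mouse the log2 fold change of Abca1 in the QDG comparison was 0.90. The part of macrophage content in the values of Abca1 and Apoe was not tested.

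Marker sums of other cell types of the kidney were compared in the same way. The summed podocyte markers were 82.7 to 98.3 FPKM in Control, 113 to 142 in Ang II and 114 to 142 in Ang II + QDG (exact two-sided permutation p = 0.00794 in the Ang II comparison and p = 0.54 in the QDG comparison), with 2 of 6 markers called higher in the first (4.95% of all genes called higher). The endothelial sums were 146 to 219, 183 to 232 and 174 to 223 FPKM, with 3 of 10 markers called higher in the Ang II comparison (4.95% of all genes), and the sums did not pass (exact p = 0.0952 and 0.937 in the Ang II and QDG comparisons). The proximal tubule sums were 7240 to 18320, 7046 to 8916 and 9153 to 14010 FPKM, which separates Ang II + QDG from Ang II (exact p = 0.00794) but not Ang II from Control (exact p = 0.0952). Kap, an androgen-regulated kidney gene named after its values were seen, made up much of these sums, with means of 6639 FPKM in Control, 2677 in Ang II and 6840 with added QDG, and 5 of the 10 markers had a higher and 5 a lower mean log2 value in each of these comparisons. None of 10 proximal tubule markers was called by limma in either comparison (5.94% and 1.81% of all genes called). At an unadjusted p under 0.05 there were 2 higher and 2 lower, and 2 higher and 1 lower (22.7% and 16.4% of all genes in either direction). Smooth muscle and pericyte markers summed to 55.2 to 70.6, 58.7 to 123 and 74.7 to 87.9 FPKM, with 2 of 7 called higher in the Ang II comparison (4.95% of all genes), and distal nephron markers to 1344 to 1846, 1166 to 1693 and 1531 to 2071 FPKM. Neither passed the exact permutation test in either comparison (p = 0.0556 and 0.778 for smooth muscle and pericyte markers, p = 0.675 and 0.0714 for distal nephron markers). Adipocyte markers summed to 309.9 FPKM in Ang II mouse 1 and 178.5 FPKM in Control mouse 2, the mice with the highest Abcg1 of their groups (3.10 and 3.06 FPKM), and to 26.7 to 114.7 FPKM in the other 13 mice. In Ang II + QDG the highest Abcg1 (3.21 FPKM, mouse 4) and the highest adipocyte sum (114.7 FPKM, mouse 5) were in different mice. Of 8 adrenal cortex markers only Star was in the files, at 0.692 to 1.45 FPKM. Of the summed FPKM of the transcripts in all 15 files, mitochondrial transcripts held 18.5% to 20.7% in Control, 15.4% to 16% in Ang II and 16.9% to 19.8% with added QDG. The mean shares of the groups stood in the same order as their means of Abca1. Whether these differences have a part in the values of the members was not tested.

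**Figure D5:**
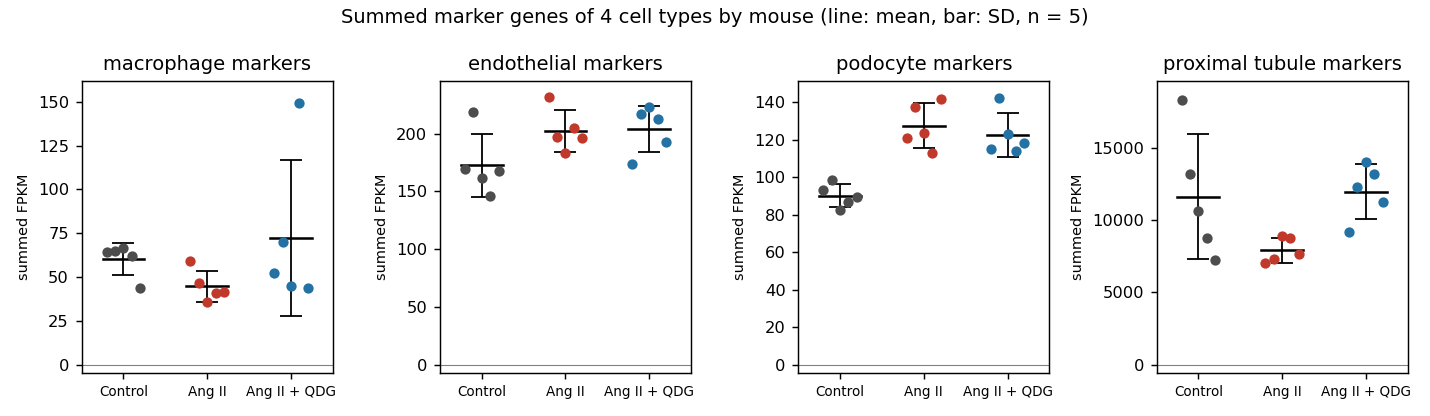
Summed FPKM (y axis) of markers of 4 cell types in each mouse (points) of the 3 groups (x axis), with the mean as a line and the SD as a bar, n = 5 per group. The macrophage sum is lowest on average in Ang II (44.7 FPKM) and reaches 149.5 FPKM in 1 Ang II + QDG mouse, and the podocyte sums of Ang II and Ang II + QDG both lie above Control.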

How the data were processed

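Kidneys of 15 mice (5 Control, 5 Ang II, 5 Ang II + QDG) were sequenced as paired-end, rRNA-depleted libraries. Per transcript, the authors deposited 1 value for each mouse, and the submitters' notes name the mm10 build and limma. The aligner and the assembler are not given in the sources used here. The unit is not stated. The deposited values were taken as FPKM, because 98.4% to 98.7% of the values under 200 fragments gave whole fragments within 0.05 once multiplied by transcript length. Ensembl transcripts in all 15 files (28871) were matched to GENCODE mouse release 21 and summed per gene, and 11141 assembled transcripts without a gene name were left out. Genes reaching 1 FPKM in 5 or more mice (12372) were tested on log2(FPKM + 1) with limma 3.58.1 in R 4.3.3 (lmFit, eBayes with trend), in 1 model of 3 group means with Benjamini-Hochberg adjustment. The fit was tested on simulated data. Group values come from separate mice, and p-values measure the spread between them. The exact permutation tests were two-sided and the within-group correlations used 100000 permutations. Members and lists were chosen with earlier results of these data known.

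Genes were named by rule: all 8 members, direct partners, every list gene called in any comparison (at most 6 per list, otherwise the gene with the highest mean FPKM), and the 5 genes most like Abca1. Some genes that this rule names are not reported here. Alternatives were other pseudocounts (0.1 and 0.01), no filter, median and quantile scaling, protein-coding transcripts only, the most abundant transcript only, only the groups compared, no trend, an exact test and leaving out each mouse. The transcript fit, the list counts under other scalings and those without Ang II + QDG mouse 4 were added after seeing the data. Motifs were searched in RefSeq promoter windows and seed matches in GENCODE transcripts, both on GRCm38.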

Additional observations from a re-analysis of the deposited data

Results flagged for a closer look

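In 27 groups of 5 mice (8 members and the summed macrophage markers, 3 groups each), 5 values stood apart from the rest of their group by a gap of more than 0.71 of the group's range. By chance about 1 in 20 groups would hold such a value. Abcg1 in Control mouse 2 had 3.06 FPKM, where the other Control mice had 0.938 to 1.31. That mouse also had the highest summed adipocyte markers of its group (178.5 FPKM, with 26.7 to 72.7 in the others), whose part in this value was not tested. Scarb1 in Ang II + QDG mouse 2 had 7.89 FPKM, where the others of its group had 5.25 to 5.91. Srebf1 in Ang II + QDG mouse 4 had 2.02 FPKM, where the others had 6.63 to 8.15. In the same mouse the summed macrophage markers reached 149.5 FPKM, with 43.5 to 70.2 in the others. In Control mouse 5 they were low at 43.98 FPKM, with 61.9 to 66.7 in the other Control mice, and that mouse also had the lowest Apoe of its group (11.6 FPKM) and the highest Abca1 of all 15 mice (7.38 FPKM).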

How the results depend on the processing

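No paired analysis was possible because the labels number no mice, and the mouse numbers used here only follow the order of the samples. In the comparisons of Ang II with Control and of added QDG with Ang II, Abca1 had the same direction under every alternative run, with −1.57 and 1.17 at a pseudocount of 0.1, −1.62 and 1.21 at 0.01, and −1.27 to −1.07 and 0.75 to 0.96 when 1 mouse was left out. The call on Apoe in Ang II vs. Control was lost with the most abundant transcript only (log2 fold change −1.10, members called 0), and without 6 single mice (−2.32 to −1.73 over all mice left out, members called 0 to 1). Mylip in Ang II + QDG vs. Ang II was called without Ang II mouse 5 or Ang II + QDG mouse 3 only (0.58 to 0.80, members called 0 to 1). By the exact test, the unadjusted p under 0.05 was lost for Mylip in Ang II + QDG vs. Control (0.40, p = 0.0635) and Nr1h3 in Ang II vs. Control (0.24, p = 0.0635). Bdh2 in Ang II + QDG vs. Ang II reversed with the most abundant transcript only (−0.027, against 0.26). Among the members, uncalled log2 fold changes that turned direction with the most abundant transcript only were those of Srebf1 in the Ang II comparison (0.19) and against Control with QDG (0.18), Nr1h2 with QDG (−0.03 against Ang II, −0.14 against Control), Apoe with QDG against Control (0.01) and Scarb1 in the Ang II comparison (−0.0014, and −0.10 with protein-coding transcripts only). Uncalled values of other named genes also took both directions over the alternatives with all mice kept, such as Lpl in the Ang II comparison (−1.29 to 0.78). The cause was not tested. Over the fold changes of all members and other named genes with all mice kept, 934 stayed on the same side of the threshold or within the spread, 26 lost a call or an unadjusted p under 0.05 and 1 gained a call, while with 1 mouse left out these counts were 1501, 68 and 6.

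In Ang II vs. Control, 408 genes were called with protein-coding transcripts only, 353 with the most abundant transcript and 456 with only the groups compared, against 735. In Ang II + QDG vs. Ang II, only the groups compared gave 58, against 224. In Ang II + QDG vs. Control the same 3 settings gave 6, 6 and 4, against 16. Leaving out 1 mouse gave 338 to 797, 53 to 250 and 0 to 110. At the threshold of the study, pseudocounts of 0.1 and 0.01 gave 308 and 315 genes against 130 in Ang II vs. Control, 199 and 204 against 101 in Ang II + QDG vs. Ang II, and 207 and 216 against 90 in Ang II + QDG vs. Control. The most abundant transcript gave 162 and 147 in the last 2.

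Depth limited the members little, the lowest being 355 fragments of Abcg1 in 1 mouse. With 5 mice per group the spread between mice limits what can be called. The sums leave out transcripts that some files do not list, and the error from assigning fragments to overlapping transcripts was not measured.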
